A study of Mus musculus with 8 samples.

Results

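Regions with peaks in phospho-CREB1 ChIP-seq of mouse muscle that lie where the ends of 2 or more protein-coding genes meet are described here. A region entered the set when the peaks merged into it came from all 4 deposited peak lists and when a peak summit from any list lay within 1000 bp of an end of the span of at least 2 genes. The presence of peaks and the position of their summits therefore chose the members. There were 545 such paired regions among 2978 shared regions, that is, regions with a peak in all 4 lists (18.3%; 95% Wilson interval 17.0 to 19.7%), and among 17607 merged regions of any kind. The other shared regions comprised 1766 at the end of a single gene and 667 away from gene ends. Of the paired regions, 533 had 2 genes and 12 had 3, and 1091 of 21887 annotated protein-coding genes had an end at one (4.98%).

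CREB1 is a basic leucine zipper transcription factor. Protein kinase A phosphorylates it when cAMP rises, and the phosphorylated form recruits coactivators of the CBP and p300 family. It binds the cAMP response element (CRE), a palindrome whose full form is TGACGTCA, and also shorter versions that hold only TGACG or its reverse complement CGTCA. In many tissues its sites lie near transcription starts, often in promoters rich in CpG. A pair of genes whose starts face away from each other across a short stretch of DNA has a bidirectional promoter. Such head-to-head pairs are common in mammals and often serve mitochondria, translation, chaperones, RNA processing and DNA repair.

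The ChIP-seq (chromatin immunoprecipitation with sequencing) libraries came from frozen muscle of male Balb/c mice. The C26 group comprised mice injected under the skin at 2 months of age with C26 cells. C26 is a murine colon tumor line that brings on muscle wasting. The CTRL group comprised control mice, and an age of 2 months is given for both groups. Each group had 2 phospho-CREB1 libraries, with 4 input libraries for the series. A rolipram (phosphodiesterase 4 inhibitor) or vehicle arm is described for C26 mice without a statement of which mice gave these libraries. The labels name gastrocnemius and the extraction protocol quadriceps, and the protocol leaves it unclear whether the antibody recognised CREB or only its phosphorylated form. Nothing states that replicates are separate animals, so their spread may be technical. The lists held 7482 and 4051 peaks in C26 replicates 1 and 2, against 10835 and 14975 in CTRL replicates 1 and 2. The depth of sequencing is unknown, and lack of a peak means only that the authors' threshold was missed. C26 replicate 2 had the shortest list, and the rule that a region be in every list is set mainly by it. Of 8 skeletal muscle markers, 4 and 2 had a gene-end peak in C26 replicates 1 and 2, against 5 and 6 in CTRL replicates 1 and 2. Markers of leukocytes, adipocytes and tumor epithelium had none in any list, and among those of endothelium and fibroblasts only Kdr and Col1a1 had one, each in CTRL replicate 2. No marker gene had an end at a paired region. The mix of cells behind the muscle libraries cannot be told apart from binding per cell.

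Of the 12 paired regions with the strongest peaks, 2 held a full CRE in a promoter window, the 250 bases before to 50 bases after an annotated start (RefSeq, GRCm38.p6). The windows below give promoter sequence at strong regions, first with the full 8-base element and then, for 2 of the strongest regions, with the short form alone. The first 5 were chosen for holding a full CRE, so they are not a typical sample of the regions. Each is written 5′ to 3′ on the strand of its gene. Capitals mark the full CRE in the first 5, and each TGACG or CGTCA in the last 2. The Nup214 window is chr2:31974200-31974499 (plus strand), Anapc10 chr8:79711599-79711898 (plus), Xpnpep3 chr15:81399888-81400187 (plus), Mrpl49 chr19:6057706-6058005 (minus), Xab2 chr8:3621247-3621546 (minus), Rpl9 chr5:65391382-65391681 (minus) and Klc4 chr17:46646031-46646330 (minus).
Nup214: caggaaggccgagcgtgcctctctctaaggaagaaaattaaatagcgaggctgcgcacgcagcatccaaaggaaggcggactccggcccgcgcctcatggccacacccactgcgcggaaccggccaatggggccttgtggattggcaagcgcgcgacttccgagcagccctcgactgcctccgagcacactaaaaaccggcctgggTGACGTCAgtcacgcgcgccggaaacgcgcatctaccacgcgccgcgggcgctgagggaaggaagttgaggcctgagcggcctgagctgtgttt
Anapc10: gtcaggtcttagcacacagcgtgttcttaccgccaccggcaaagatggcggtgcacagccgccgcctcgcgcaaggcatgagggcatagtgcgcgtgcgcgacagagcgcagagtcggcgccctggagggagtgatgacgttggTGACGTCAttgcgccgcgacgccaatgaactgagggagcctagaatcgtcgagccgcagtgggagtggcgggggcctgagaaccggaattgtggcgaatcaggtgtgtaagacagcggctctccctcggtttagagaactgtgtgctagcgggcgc
Xpnpep3: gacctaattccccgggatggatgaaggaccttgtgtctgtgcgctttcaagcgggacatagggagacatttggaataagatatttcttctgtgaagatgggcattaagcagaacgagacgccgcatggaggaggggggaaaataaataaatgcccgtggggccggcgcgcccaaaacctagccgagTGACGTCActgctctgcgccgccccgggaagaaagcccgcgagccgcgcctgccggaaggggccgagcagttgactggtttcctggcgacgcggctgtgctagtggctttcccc
Mrpl49: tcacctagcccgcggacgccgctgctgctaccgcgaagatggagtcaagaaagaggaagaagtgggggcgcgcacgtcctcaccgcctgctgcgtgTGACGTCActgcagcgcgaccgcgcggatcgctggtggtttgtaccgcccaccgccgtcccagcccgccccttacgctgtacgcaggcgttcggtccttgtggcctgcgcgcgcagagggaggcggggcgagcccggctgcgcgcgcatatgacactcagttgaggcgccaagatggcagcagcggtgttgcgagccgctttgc
Xab2: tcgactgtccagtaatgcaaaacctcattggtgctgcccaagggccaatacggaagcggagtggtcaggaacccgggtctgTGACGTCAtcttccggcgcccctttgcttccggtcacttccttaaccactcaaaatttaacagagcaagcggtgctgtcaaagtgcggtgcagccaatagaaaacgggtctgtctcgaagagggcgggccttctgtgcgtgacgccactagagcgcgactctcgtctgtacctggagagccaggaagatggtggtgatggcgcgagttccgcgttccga
Rpl9: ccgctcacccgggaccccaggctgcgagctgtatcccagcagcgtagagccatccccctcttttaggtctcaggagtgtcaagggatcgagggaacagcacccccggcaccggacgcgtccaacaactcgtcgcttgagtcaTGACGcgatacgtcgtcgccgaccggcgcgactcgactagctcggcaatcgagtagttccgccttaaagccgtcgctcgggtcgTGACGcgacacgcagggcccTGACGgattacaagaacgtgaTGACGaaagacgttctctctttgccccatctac
Klc4: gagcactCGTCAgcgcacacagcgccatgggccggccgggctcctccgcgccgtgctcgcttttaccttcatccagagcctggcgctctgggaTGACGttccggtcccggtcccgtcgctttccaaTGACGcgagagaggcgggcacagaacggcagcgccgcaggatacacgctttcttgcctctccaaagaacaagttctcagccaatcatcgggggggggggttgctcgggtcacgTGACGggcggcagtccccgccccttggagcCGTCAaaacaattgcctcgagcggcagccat

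In the Anapc10 window the peak summit of C26 replicates 1 and 2 lay 4 and 2 bp above the middle of the element in genome coordinates, against 2 bp above and 5 bp below it in CTRL replicates 1 and 2. For Mrpl49 the summit lay 4 bp below and 2 bp above the element in C26 replicates 1 and 2, against 6 and 9 bp below it in CTRL replicates 1 and 2. In the Xab2 window the summit lay 73 and 129 bp below the element in C26 replicates 1 and 2, against 90 and 98 bp below it in CTRL replicates 1 and 2. Xab2 was thus an example of a full CRE away from the summit, while in the Anapc10 and Mrpl49 windows the element was within 9 bp of every summit. The Rpl9 window held 4 short elements and the Klc4 window 5, with no full CRE in either.

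Most members with known strands were pairs of starts. Strands of both genes were known for 399 of the 533 regions with 2 genes. Among these, 319 were head-to-head, 66 head-to-tail (the start of one gene beside the end of another on the same strand), 9 had starts of genes on the same strand, 5 had a start beside the tail of a gene on the opposite strand, and 0 were tail-to-tail. Because head-to-head pairs are common in the genome, the annotated pairs themselves were used as the base. Of 3541 annotated pairs, 1286 had an unknown strand and are left out of the shares by orientation. A shared region lay at 134 of these 1286 (10.4%). Of 896 annotated head-to-head pairs with ends within 1000 bp of each other, 326 (36.4%; 33.3 to 39.6%) had a shared region at them, against 1 of 725 tail-to-tail pairs (0.138%; 95% Wilson upper bound 0.777%). Head-to-tail pairs had one at 68 of 506 (13.4%), same-strand starts at 14 of 40 (35.0%) and same-strand ends at 1 of 46. Shares were thus high where 2 starts met and near 0 where 2 tails met. The intervals cover counting error only, and neighbouring pairs can share a region.

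**Figure D1:**
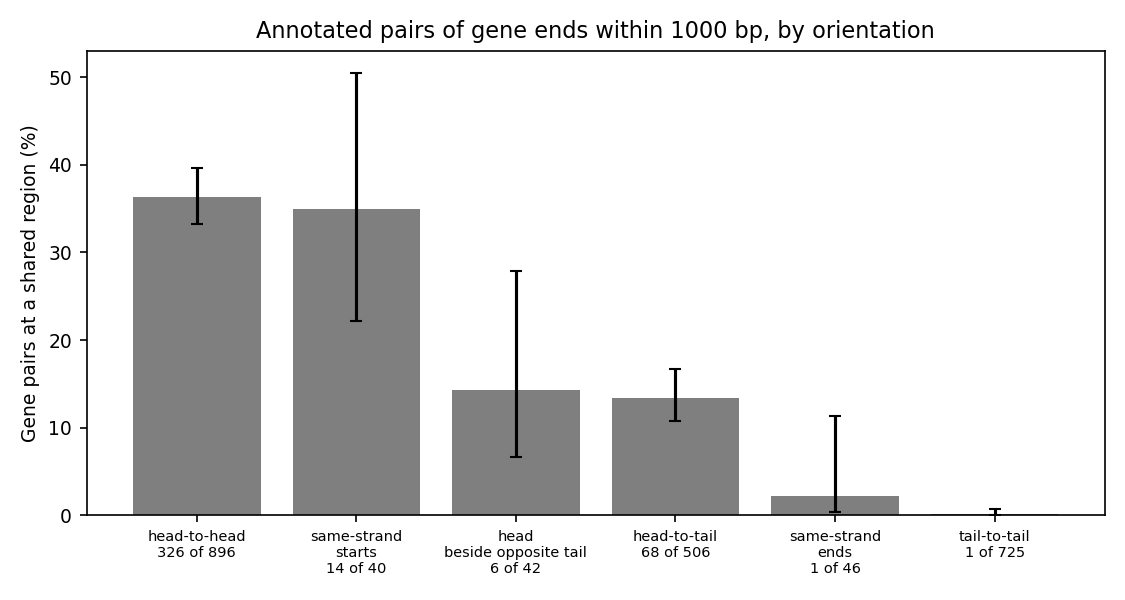
Share of annotated gene pairs with ends within 1000 bp of each other that had a paired region at both ends (y axis, percent), by orientation (x axis), with 95% Wilson intervals as bars and the counts below each name. Head-to-head pairs stood at 36.4% and tail-to-tail pairs at 0.138%. The 1286 pairs with an unknown strand are not drawn.

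Within head-to-head regions the 2 gene spans lay apart in 212 of 319 (66.5%), by a median of 103.5 bp, and overlapped in 107 by a median of 241 bp. The median summit over the 4 lists lay between the 2 starts in 153 of 319, at a median of 43 bp from the nearer start and 73.5 bp from the midpoint. In head-to-tail regions the summit was nearer the start than the tail in 61 of 66, with a median of 79 bp to the start and 398.25 bp to the tail. The position of the summit entered the choice of members only through the 1000 bp limit. Summits of the 4 lists lay within a median range of 79 bp of each other at paired regions, 73 bp at single gene ends and 99 bp away from gene ends.

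The 1000 bp limit was a round value, and the data around it were looked at only in the 3 nearest regions on each side. Just inside it were Kcnab2/Nphp4 with its second gene end at 987 bp, Rps6kb2/Carns1 at 982 bp and Aif1l/Nup214 at 976 bp. Just outside were Ccdc134 and Mei1 at 1002 bp, Acaa1a and Myd88 at 1006 bp, and Vamp3 and Gm38529 at 1012 bp. Strength, the percentile of a region's −log10 q within its list among the 2978 shared regions, averaged 28.3, 98.6 and 99.3 over the 4 lists in the 3 inside and 46.9, 17.0 and 91.6 in the 3 outside. Strong and weak regions thus stood on both sides of the limit.

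The strongest paired regions are given with the authors' fold enrichment over input, whose scale is set by each library and which is not compared between lists. The region of Rpl9 and Lias (chr5:65391030-65392121), genes for a cytosolic ribosomal protein and for lipoic acid synthase of mitochondria, had fold enrichments of 87.2 and 76.9 in C26 replicates 1 and 2, against 88.2 and 218 in CTRL replicates 1 and 2. Its starts lay 66 bp apart and its mean percentile was 99.8. Tubgcp6, of the gamma-tubulin ring complex that nucleates microtubules, and Hdac10, a polyamine deacetylase, shared a region (chr15:89122492-89123617) at 56.4 and 39.4 in C26 replicates 1 and 2, against 105 and 225 in CTRL replicates 1 and 2. At Klc4, a kinesin light chain, and Mrpl2, of the mitochondrial ribosome, the overlap of the gene spans was 17 bp and the region (chr17:46645541-46646692) stood at 86.8 and 48.2 in C26, against 107 and 182 in CTRL. In every list these 3 regions ranked at a percentile above 99.

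Emc3, part of a complex that inserts proteins into the endoplasmic reticulum membrane, and Fancd2, of the Fanconi anemia pathway for crosslink repair, had a region (chr6:113531182-113532045) at 70.2 and 56.5 in C26, against 153 and 134 in CTRL. The region of Aif1l and Nup214, a nuclear pore protein (chr2:31973974-31974954), was head-to-tail and stood at 98.2 and 40.1 in C26, against 114 and 141 in CTRL. Abce1, a ribosome recycling factor, and Anapc10, of the anaphase-promoting complex, had starts overlapping by 4 bp and a region (chr8:79711344-79712148) at 80.4 and 39.3 in C26, against 93.9 and 148 in CTRL. The remaining 6 of the strongest 12 lay at Zdhhc3/Exosc7, Bysl/Gm20517/Med20, Rnf166/Ctu2, Eif2b1/Gtf2h3, Odr4/Tpr and Phf7/Bap1, with mean percentiles of 98.7 to 99.4. Their genes include a subunit of the RNA exosome (Exosc7), a subunit of Mediator (Med20), a tRNA thiolation enzyme (Ctu2), a subunit of the translation factor eIF2B (Eif2b1), a nuclear pore basket protein (Tpr) and a deubiquitinase (Bap1).

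Neither paired regions nor those at a single gene end ranked higher in all 4 libraries. The median percentile of paired regions was 54.9 and 51.8 in C26 replicates 1 and 2 and 52.7 and 53.1 in CTRL replicates 1 and 2. Single gene-end regions stood at 54.8 and 54.0 in C26 and 54.9 and 56.1 in CTRL. The difference, paired minus single, averaged −1.83 ± 1.36 points (SD, n = 4 libraries; two-sided exact sign-flip test, p = 0.25; the smallest p with 4 libraries is 0.125, so no such test here can pass 0.05), and it was negative in 3 of 4 libraries and turned positive when C26 replicate 2 was left out (3.07). Shared regions away from gene ends stood at 32.5 and 40.8 in C26 and 30.4 and 27.6 in CTRL, so paired regions were higher by a mean of 20.3 points (exact sign-flip p = 0.125, higher in 4 of 4 libraries). The top of the order held a larger share of paired regions in all 4 libraries. In C26 replicates 1 and 2, 14.1 and 13.6% of paired regions lay above the 90th percentile, as did 15.2 and 14.1% in CTRL, against 10.8 and 10.9% of single gene-end regions in C26 and 10.4 and 10.9% in CTRL (mean difference 3.51 percentage points, exact sign-flip p = 0.125). Peaks at paired regions had median widths of 635 and 489 bp in C26 and 767 and 905 bp in CTRL, against 600 and 458 bp in C26 and 736 and 856 bp in CTRL at single gene ends, wider by 36.5 bp on average (exact sign-flip p = 0.125, wider in 4 of 4).

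Over all merged regions with a summit near a gene end, 67.0 and 39.3% of 1459 paired regions had a peak in C26 replicates 1 and 2 and 83.0 and 97.1% in CTRL replicates 1 and 2. Of 7097 single gene-end regions, the shares were 55.5 and 28.0% in C26 and 75.0 and 93.1% in CTRL. The mean difference was 8.68 percentage points, with no test, since peaks and summits also set which regions count as paired. The share in all 4 lists was 37.4% for paired regions, 24.9% for single gene ends and 7.37% away from gene ends. Because summits from any list count, regions with more peaks have more chances to lie near 2 genes, so the shares were also taken over genes, grouped by the annotation alone, with each library's own summits. Of 5426 genes with an end within 1000 bp of another gene's end, 46.2 and 26.9% had one in C26 and 57.8 and 65.6% in CTRL, against 19.5 and 9.72% in C26 and 26.1 and 31.7% in CTRL of 16461 other genes. That difference was 27.4 percentage points (exact sign-flip p = 0.125), and one peak can serve both genes of a pair in it.

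Motifs were searched on both strands in the promoter windows of 485 of the 545 paired regions. The full CRE was found in 51 (10.5%), TGACG, which is part of TGACGTCA, in 320 (66.0%), the ETS motif CCGGAAG in 179 (36.9%), CCAAT in 256 (52.8%), the GC box GGGCGG in 375 (77.3%) and the NRF1 motif in 41 (8.45%). In 1402 single gene-end regions with a window the shares were 11.6, 63.1, 23.0, 47.6, 76.2 and 6.49% in the same order. In all 21263 windows of protein-coding genes they were 2.23, 23.6, 11.6, 38.2, 46.2 and 3.81%. A paired region can have several windows, which raises its shares, so regions with 1 window were also set side by side. Among 151 such paired regions the shares were 11.3, 57.6, 31.8, 46.4, 66.9 and 5.96% in the same order, against 11.5, 61.6, 22.2, 46.0, 75.0 and 6.46% among 1239 such single gene-end regions. With 1 window the share of paired regions was thus lower for TGACG, the GC box and the NRF1 motif, where it was higher over all regions, and it was higher for the ETS motif in both. A match describes letters, and shows no bound site.

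Paired regions with a full CRE ranked high in every library. Their median percentile was 84.5 and 81.9 in C26 replicates 1 and 2 and 82.9 and 83.3 in CTRL replicates 1 and 2, against 50.8 and 48.1 in C26 and 49.6 and 50.3 in CTRL for those without one. The mean difference was 33.4 points (exact sign-flip p = 0.125, higher in 4 of 4 libraries). Without C26 replicate 2 it was 20.4 points. That value covers only regions also among the 545 members, re-ranked among the regions shared by the other 3 lists. The 269 regions with TGACG or CGTCA alone stood at 60.0 and 55.2 in C26 and 60.5 and 59.2 in CTRL, against 33.6 and 34.2 in C26 and 36.7 and 36.7 in CTRL for the 165 with neither. That difference was 23.4 points (exact sign-flip p = 0.125). The order full element, short element, none thus held in all 4 libraries. The same order held at single gene ends, where the short element alone stood 22.8 points above neither (exact sign-flip p = 0.125, higher in 4 of 4).

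**Figure D2:**
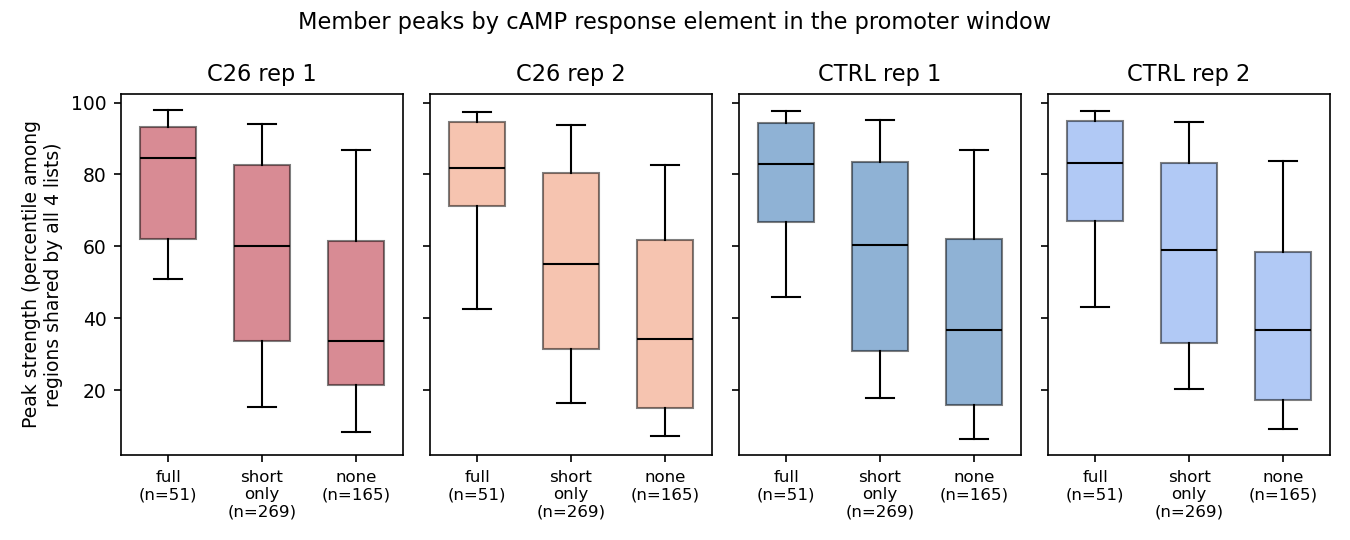
Percentile by −log10 q (y axis) of paired regions with a full CRE, with the short element alone (short only) or with neither, by library (C26 left of CTRL). Lines are medians, boxes the quartiles and whiskers the 10th and 90th percentiles, and medians with a full CRE lie between 81.9 and 84.5 and those with neither between 33.6 and 36.7.

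The other motifs went with smaller differences in rank or with lower rank. Regions with the NRF1 motif, the site of a factor of nuclear genes for mitochondrial proteins, stood at 29.2 and 40.8 in C26 and 36.5 and 44.6 in CTRL, against 58.1 and 53.8 in C26 and 56.2 and 54.6 in CTRL without it (mean difference −17.89 points, exact sign-flip p = 0.125, lower in 4 of 4). At single gene ends the same difference was −2.27 points (exact sign-flip p = 0.375); the difference between the kinds of region was not tested. The GC box went with −8.99 points (exact sign-flip p = 0.125), CCAAT with −4.35 (p = 0.125) and the ETS motif with 0.40 (p = 0.875). At single gene ends a full CRE went with 23.6 points, the GC box with −7.53 and CCAAT with −4.73. The ETS motif went there with 6.66 points (exact sign-flip p = 0.125, higher in 4 of 4 libraries).

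Summits lay close to the full CRE. The distance from the element to the median summit was 15.5 bp at the median of 51 regions, within 50 bp in 44 of them, with medians of 14 and 22 bp in C26 replicates 1 and 2 and 16 and 16 bp in CTRL replicates 1 and 2. For the nearest copy of each motif, the median distance was 13.5 bp for the full CRE, 21.75 bp for TGACG, 62.75 bp for CCAAT, 64.5 bp for the GC box, 71 bp for the ETS motif and 121.5 bp for the NRF1 motif. CRE sequence was the nearest to the summit among the motifs searched, and the reach of the promoter window bounds all of these distances. Single gene ends were alike, with the full CRE at a median of 15 bp from the summit and within 50 bp in 150 of 163 regions.

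**Figure D3:**
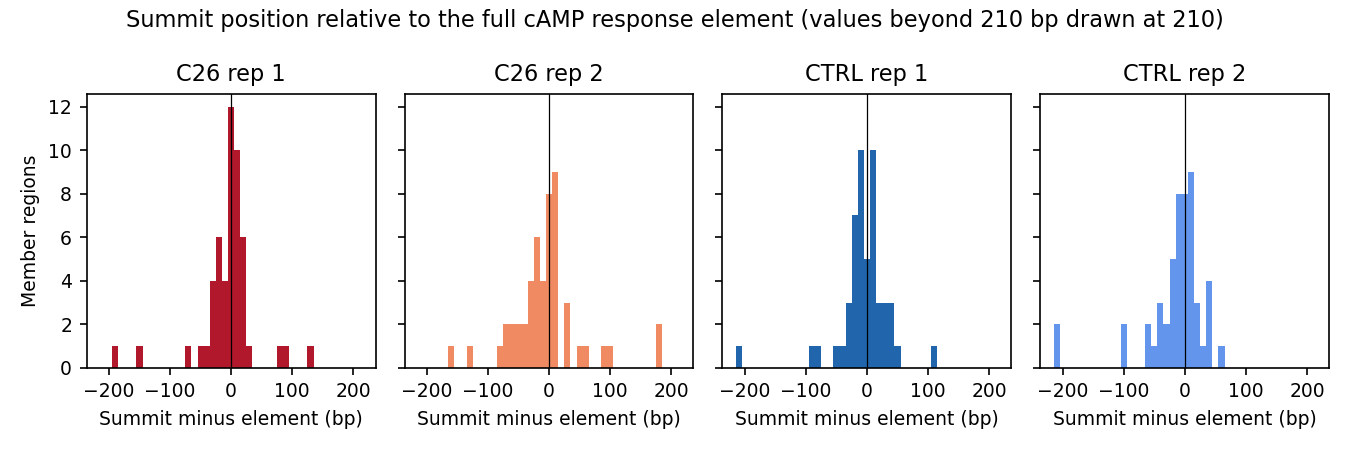
Number of paired regions (y axis) by the position of the peak summit relative to the middle of the full CRE (x axis, bp in genome coordinates), for each C26 and CTRL library, over the 51 regions with a full CRE. The bins near 0 are the tallest in every library, and values beyond the axis are drawn at its edge.

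Head-to-head regions ranked above the other orientations with known strand. Their median percentile was 58.6 and 54.0 in C26 and 56.3 and 54.5 in CTRL (319 regions), against 44.9 and 41.0 in C26 and 47.5 and 43.9 in CTRL (80 regions). The mean difference was 11.5 points (exact sign-flip p = 0.125, higher in 4 of 4), and 18.4 points with a limit of 500 bp in place of 1000 bp. Among head-to-head regions with the spans apart, the 195 with a gap of 500 bp or less stood 18.9 points above the 17 with a larger one (exact sign-flip p = 0.125), while spans apart and spans overlapping differed by −2.55 points (p = 0.5).

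The middle of the set had nearly the same rank in C26 and CTRL libraries. The median percentile in C26, averaged over its 2 libraries, minus that in CTRL was 0.50 points (exact permutation p = 1.0; with 2 libraries a group this test cannot reach 0.05). Over regions, the median C26 minus CTRL difference was −0.52 points, with quartiles of −7.65 and 5.17. The median gap between replicates was 11.3 points in C26 and 5.79 points in CTRL. In 93 regions (17.1%) both C26 percentiles lay below both CTRL percentiles, against 17.5% of all 2978 shared regions, and in 85 (15.6%) both lay above, against 17.5%. Both shares lay near those of all shared regions. A rank is an order within a list and not a level of binding. All shared regions together have a median near 50 in every list by construction. A change of binding common to all of them would therefore not show in these ranks. A region had to have a peak in every list to be a member, so regions whose peak was missing in C26 are outside this comparison. Of all paired regions, 223 of 1459 (15.3%) had a peak in both CTRL lists and neither C26 list, 0 had the reverse, 388 lacked a peak only in C26 replicate 2 and 19 only in C26 replicate 1. Of those with a peak in both CTRL lists, 223 of 1175 (19.0%) had none in either C26 list, against 1278 of 4955 (25.8%) at single gene ends. The shorter C26 lists move with these counts, and their part in them was not tested.

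Of the regions with both C26 percentiles above both CTRL percentiles, the largest difference was at Aimp2, a scaffold of the aminoacyl-tRNA synthetase complex, and Pms2, of mismatch repair, with percentiles of 58.8 and 78.1 in C26, against 19.4 and 38.8 in CTRL. Ndufaf3, an assembly factor of respiratory complex I, shared with Dalrd3 a region at 46.4 and 78.8 in C26, against 30.6 and 32.3 in CTRL. Aurka, a mitotic kinase, and Cstf1, of mRNA 3′ end cleavage, shared one at 34.3 and 42.6 in C26, against 5.26 and 9.75 in CTRL. Atp5pb, a subunit of ATP synthase, and Wdr77 stood at 84.7 and 45.9 in C26, against 28.8 and 37.2 in CTRL. Ddrgk1/Itpa and 1810024B03Rik/Snrnp200 completed the 6 largest, at differences of 33.8 and 30.9 points. None of these 6 regions held a full CRE in a promoter window. Of all paired regions with a window only 51 of 485 (10.5%) held one, so its absence from 6 says little. The C26 replicates decided several of these sizes. Without C26 replicate 2 the differences of 1810024B03Rik/Snrnp200 and Ndufaf3/Dalrd3 were 17.3 and 14.4 points, and without C26 replicate 1 those of Atp5pb/Wdr77, Ddrgk1/Itpa and 1810024B03Rik/Snrnp200 were 11.4, 21.8 and 47.2 points.

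On the lower side, G2e3/Scfd1 stood at 42.0 and 26.7 in C26, against 71.9 and 73.9 in CTRL. Foxa3, a forkhead factor, and Sympk, of mRNA 3′ end processing, shared a region at 35.8 and 8.09 in C26, against 62.2 and 54.3 in CTRL. The region of Car11 and Dbp, a clock-controlled transcription factor, stood at 12.1 and 23.5 in C26, against 37.4 and 58.0 in CTRL. Dcun1d3 and Lyrm1 shared a region with a full CRE at 62.9 and 19.5 in C26, against 73.9 and 79.9 in CTRL. At Rad17/Ak6/Taf9, where Rad17 loads a checkpoint clamp and Taf9 is a subunit of TFIID, the percentiles were 75.2 and 5.12 in C26, against 79.7 and 82.7 in CTRL, so C26 replicate 2 set most of the difference. Zbtb48/Tas1r1 stood at 38.7 and 23.5 in C26, against 67.6 and 52.5 in CTRL. Without C26 replicate 2 the differences of Rad17/Ak6/Taf9, Dcun1d3/Lyrm1, Foxa3/Sympk, G2e3/Scfd1 and Zbtb48/Tas1r1 were −3.1, −8.3, −18.5, −21.7 and −16.9 points, and without C26 replicate 1 those of Rad17/Ak6/Taf9 and Dcun1d3/Lyrm1 were −76.6 and −55.9 points. Several of these 12 regions were members only under some settings. With every list trimmed to the length of the shortest, Ddrgk1/Itpa, Aurka/Cstf1, 1810024B03Rik/Snrnp200 and Car11/Dbp were no longer members. Rad17/Ak6/Taf9 was not one at −log10 q of at least 3, nor were Foxa3/Sympk and Dcun1d3/Lyrm1 at 5 or more, where the difference of Aurka/Cstf1 was 19.1 points. G2e3/Scfd1 and Foxa3/Sympk were outside a limit of 500 bp.

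**Figure D4:**
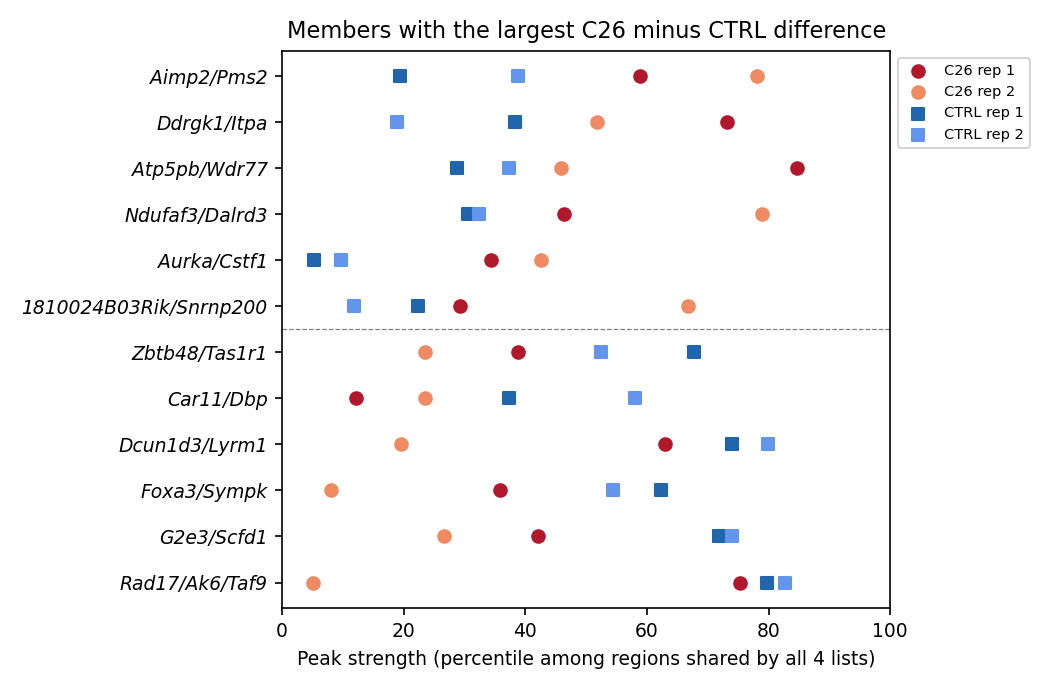
Percentile by −log10 q (x axis) in each C26 library (circles) and each CTRL library (squares) for the 12 paired regions with the largest differences (rows), C26 higher above the dashed line and C26 lower beneath it. At Rad17/Ak6/Taf9 the C26 replicates stand at 75.2 and 5.12, and at Aurka/Cstf1 at 34.3 and 42.6.

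Gene lists differed in how many of their genes had an end at a paired region. Of 24 gene lists, 201 of 545 paired regions had a gene of at least one, and no such count was made for the other shared regions. The share of a list at paired ends is to be read beside the 4.98% of all protein-coding genes. That base includes 16461 genes with no other gene's end within 1000 bp, against 5426 with one. How many genes of each list have such a neighbour was not counted, so a high share can come from that alone. Genes of iron-sulfur cluster and lipoic acid synthesis stood at 30.4% (7 of 23), among them Lias and Iscu, the scaffold on which clusters are built. Assembly factors of oxidative phosphorylation (OXPHOS) stood at 25.5% (13 of 51), led in strength by Foxred1 (mean percentile 98.6) and Pet100 (98.0). Mitochondrial genome expression followed at 22.9% (11 of 48), with the ribosome recycling factor Mrrf at a mean percentile of 96.9, and mitochondrial import and chaperones at 20.5% (9 of 44), with the protease Lonp1 at 95.6. Mitochondrial ribosomal proteins stood at 16.7% (13 of 78). Subunits of the respiratory chain themselves stood at 7.89% for complex I (3 of 38) and 8.89% for cytochrome c with complexes II to V (4 of 45). Lists were matched on current symbols, and Atp5pb, which the list of complexes II to V holds under an older symbol, is not in its count.

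Enzymes that modify tRNA and other RNA stood at 20.2% (19 of 94), splicing factors at 19.6% (22 of 112), chaperones at 19.2% (19 of 99) and translation factors at 18.9% (14 of 74). The median mean percentile of the RNA modification regions was 84.1, with Ctu2 and Dus4l, which act on tRNA, at 99.2 and 95.9. DNA repair genes stood at 16.8% (17 of 101), aminoacyl-tRNA synthetases of the cytosol at 13.6% (3 of 22), cytosolic ribosomal proteins at 12.8% (11 of 86), centrosome and cilium genes at 12.4% (13 of 105), atrophy and autophagy genes at 11.9% (5 of 42) and RNA polymerases with general transcription factors at 10.1% (9 of 89). These lists also had genes at other shared regions. Chaperones had 31 of 99, cytosolic ribosomal proteins 29 of 86, splicing factors 27 of 112 and atrophy and autophagy genes 15 of 42. RNA polymerases with general transcription factors had 21 of 89, cytosolic aminoacyl-tRNA synthetases 5 of 22 and translation factors 16 of 74. Centrosome and cilium genes had 19 of 105, RNA modification 11 of 94 and DNA repair 11 of 101. Among all protein-coding genes, 2837 of 21887 had an end at any shared region, paired or not. The lower lists were proteasome subunits at 8.00% (4 of 50), the TCA cycle and fatty acid oxidation at 8.57% (3 of 35), chromatin modifiers at 7.46% (10 of 134) and ubiquitin conjugation and deubiquitination at 6.14% (7 of 114). Sarcomere genes had 0 of 44 at a paired end and 1 at another shared region. These lists were written with earlier results of these data known, genes of a list share gene families and neighbourhoods, and their shares carry no test.

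**Figure D5:**
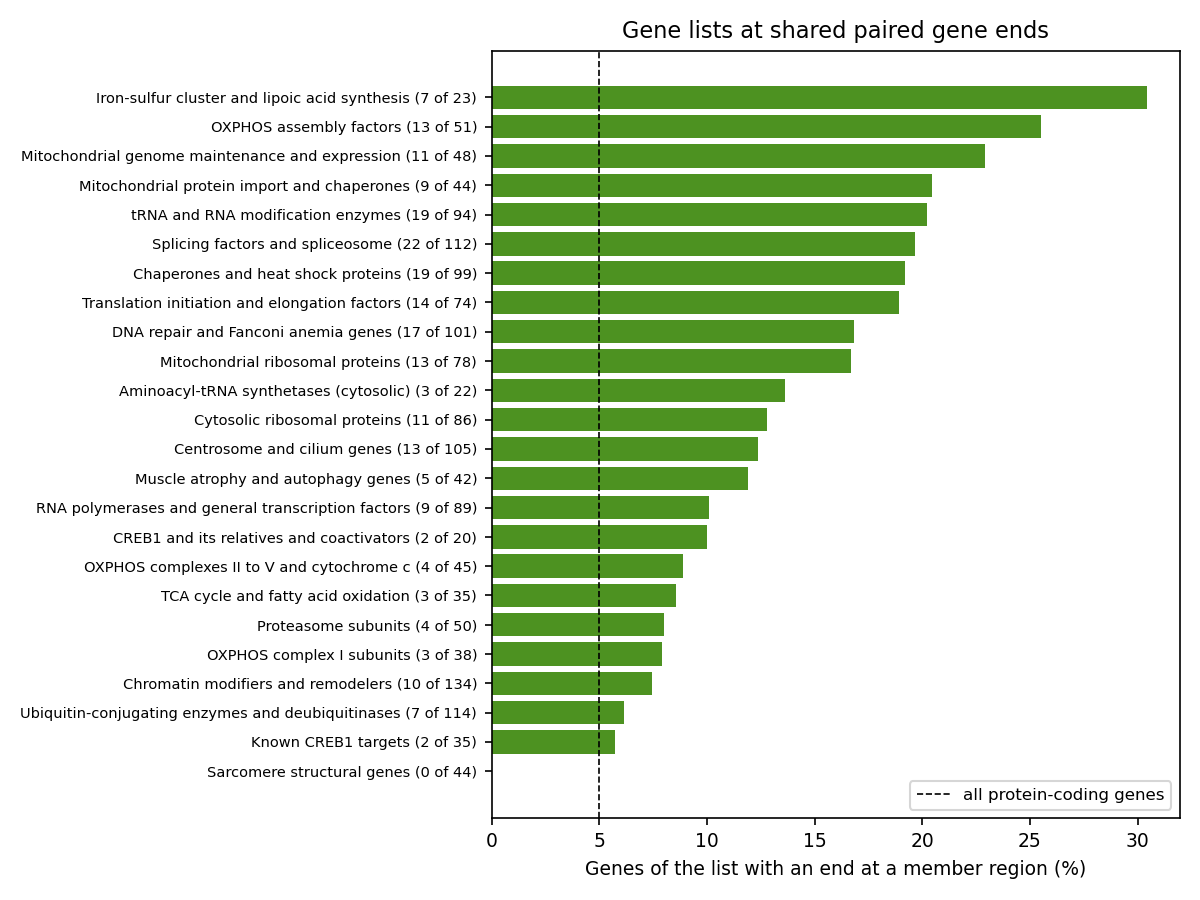
Share of the measured genes of each list with an end at a paired region (x axis, percent; bars, counts in the row names), with a dashed line at the 4.98% of all protein-coding genes; Atp5pb is in no count. Iron-sulfur cluster and lipoic acid synthesis stands at 30.4% and sarcomere genes at 0%.

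Lists tied to CREB1 itself stood at 10.0% for CREB1, its relatives and coactivators (2 of 20) and 5.71% for textbook CREB1 targets (2 of 35), against 4.98% of all protein-coding genes. Of the relatives, Creb3 (with Tln1) and Atf5 (with Nup62 and Il4i1b) had one, at mean percentiles of 19.1 and 9.22, and a further 10 had an end at other shared regions. Of the targets, Pcna, the sliding clamp of replication, and Nr4a2, an immediate early nuclear receptor, had one. The partner of Nr4a2 was LOC105244150, and 46 of the 545 paired regions had a gene with a predicted or clone name. A further 15 targets had an end at other shared regions. Among all protein-coding genes, 2837 of 21887 had an end at any shared region, paired or not. The 10 of 20 relatives and 15 of 35 targets at other shared regions were each a larger share than that, with no test. The Pcna/Cds2 region stood at percentiles of 81.4 and 78.7 in C26, against 83.8 and 83.0 in CTRL. For Nr4a2 they were 54.9 and 41.2 in C26, against 39.5 and 29.7 in CTRL. In 7 of the 9 regions of RNA polymerase and general transcription factor genes both C26 percentiles lay below both CTRL percentiles, with a median difference of −6.63 points, against 17.1% of all paired regions. They were those of Gtf2h3, Gtf2h5, Gtf2e1, Taf11, Taf9, Gtf3c1 and Taf6l. They were singled out after their values were seen.

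In 4 regions both genes belonged to the same list. Hspd1 and Hspe1, the mitochondrial chaperonin and its cochaperonin, stood at 78.9 and 41.9 in C26, against 79.6 and 75.2 in CTRL. Dhx38 and Txnl4b, both of the spliceosome, had a full CRE in their region, which stood at 60.6 and 29.9 in C26, against 63.5 and 69.4 in CTRL. The region of Mcm4, of the replicative helicase, and Prkdc, of DNA end joining, stood at 56.1 and 44.1 in C26, against 24.2 and 59.3 in CTRL. Hspa1a and Hspa1l stood at 34.1 and 62.8 in C26, against 18.8 and 23.9 in CTRL, and Hspa1a has a near-identical copy in Hspa1b, so reads there are uncertain. Of 22 gene pairs known from textbooks as bidirectional, 21 had ends within 1000 bp of each other and 8 were at paired regions. Of all annotated head-to-head pairs, 326 of 896 (36.4%) had a shared region, so the textbook pairs did not stand out by their count. The 8 had mean percentiles of 99.8 for Rpl9/Lias, 99.5 for Emc3/Fancd2, 94.6 for Brca1/Nbr1, 79.3 for Psmb9/Tap1, 68.9 for Hspd1/Hspe1, 50.4 for Mrps12/Sars2, 45.9 for Mcm4/Prkdc and 41.5 for Gart/Son. Their strength thus ran through the middle and the top of the order.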

How the data were processed

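Phospho-CREB1 ChIP-seq was deposited as 1 peak list per library, 2 of C26 and 2 of CTRL muscle. The submitters' processing notes name Bowtie2 2.3.5.1, SAMtools 1.6, Picard, FastQC 0.11.2 and MACS2 2.1.4, with mm10 (GRCm38) as the build. An input library of the same group served as background at a q threshold of 0.05, per the labels. Peaks were called per library. The deposited columns used were fold enrichment (a ratio) and the −log10 q-value, both the authors' values on each library's own scale, and the summit. The deposited −log10 p-value, the score and the 4 input libraries were not used. Depth is unknown.

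Peaks were merged by 1 bp of overlap (Python 3.11.15, pandas 2.3.3). Gene spans came from a RefSeq table of GRCm38.p6 (21887 protein-coding genes on 21 chromosomes), and strand from its promoter table, which held 918 of the 1091 member genes. Medians per library were compared between kinds of region by an exact sign-flip test over 4 libraries, and C26 with CTRL by an exact permutation test. Both are two-sided. Merging, the kinds of region and the order of percentiles were checked on simulated peaks, and both tests on fixed values. Wilson intervals are 95% and cover counting error only. Named regions were the 12 strongest, the 6 largest non-overlapping differences each way, the 3 strongest of each gene list, the textbook pairs, the regions at the distance limit and regions with both genes in 1 list. Members and lists were chosen with earlier results of these data known. The labels do not say whether replicate numbers pair the libraries. The correlation of deviations was −0.0589 over 2 pairs, too few to tell, so results with the replicate number as a block are given below. Alternatives were other distance limits, thresholds, overlaps, rankings and left-out libraries.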

Additional observations from a re-analysis of the deposited data

How the results depend on the processing

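The number of paired regions was 545, and 540 to 928 when a peak was required in only 3 lists, with 928 without C26 replicate 2. It was 364 to 541 under the other distance limits, thresholds and overlaps. Paired minus single strength turned to 0.43 points at −log10 q of at least 5, and ranged from −1.36 to 3.07 with 1 library left out. The C26 minus CTRL median of 0.50 points turned to −1.69 at −log10 q of at least 5, −0.32 with the summit of every list near 2 genes and −0.17 by fold, and ranged from −2.74 to 0.12 with 1 library left out. With the replicate number as a block it was 0.50 (exact sign-flip p = 1.0), and 150 regions had C26 below CTRL in both same-numbered pairs and 118 above, against 93 and 85 without the block. At a limit of 250 bp these counts were 61 and 54. Leaving out 1 library gave 175 to 329 below and 146 to 318 above, where a group of 1 library overlaps less often by construction. The full CRE difference ranged from 20.4 to 33.0 points and the head-to-head difference from 8.87 to 12.3 points with 1 library left out. Both ranges cover only regions that were also among the 545, and 540 of these stayed members without C26 replicate 2. The cause of these shifts was not tested. Unknown depth and the short list of C26 replicate 2 limit all counts of shared regions.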
